A study of Homo sapiens with 65 samples.

Results

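Glycolysis and the response to low oxygen were described through 40 genes, 25 of glycolysis and 15 other targets of hypoxia-inducible factors, out of 58735 genes counted in human cardioids. The members were listed by name and matched from Ensembl gene IDs to current symbols. Cardioids are self-organising heart-like aggregates, here of the left-ventricular kind, grown from WTC-11, an established line of human induced pluripotent stem cells. Each of 65 libraries pooled 8 cardioids and was read from the 3′ ends of polyadenylated RNA.

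The genotype arm compared wild-type cardioids (WT) with cardioids of clones labelled as HAS2 knockouts (KO). HAS2 encodes a synthase of hyaluronan, a large sugar polymer of the extracellular matrix. WT had 5 libraries at day 1.5, KO had 6, each genotype had 6 at days 2.5 and 4.5, and each had 3 at day 7.5. The KO libraries came from the clones cl4, cl14, cl46 and cl51, and cl4 gave up to 3 libraries of a group. The WT libraries came from WT, WT_TU, cl43_WT_UT and TNT2. The other 24 libraries tested an enzyme, with 8 groups of 3. These groups were untreated (UT), treated with hyaluronidase, which digests hyaluronan, from day 1.5 (HAse1.5), or treated from day 2.5 (HAse2.5). UT and HAse1.5 were collected at days 2.5, 4.5 and 7.5, and HAse2.5 at days 4.5 and 7.5. Replicates 1, 2 and 3 of every enzyme group were the lines TNNI1, WT and TNNT2.

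All groups shared the same culture. Cells were induced on plates to day 1.5 in a medium with FGF2, Activin A, BMP4, CHIR99021 and the PI3-kinase inhibitor LY294002. They were then dissociated and reseeded in low-attachment wells with a patterning medium (BMP4, FGF2, insulin, C59 and retinoic acid), with a second patterning medium for days 3.5 to 4.5 and a cardiomyocyte medium after that. A step from one day to the next therefore joins time, medium and, at day 1.5, the change from a plate to an aggregate, and these cannot be told apart. Libraries that repeat a line share that line, so the p-values measure the spread between libraries and not between unrelated donors.

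Glycolysis splits glucose into pyruvate, which lactate dehydrogenase turns into lactate or which enters mitochondria through pyruvate dehydrogenase, an enzyme that the PDK kinases switch off. When oxygen is low, prolyl hydroxylases such as those encoded by EGLN1 and EGLN3 stop marking hypoxia-inducible factors for breakdown. The factors then bind hypoxia response elements with the core ACGTG or GCGTG and raise transcription of glycolytic enzymes, VEGFA, BNIP3 and other genes. Fetal heart muscle uses much glucose, and maturing heart muscle shifts towards the oxidation of fatty acids.

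The core letters near the transcription starts are shown for 8 of the 35 members called in at least 1 comparison. These 8 were chosen by name, so their cores are no result about the calls. HK1, PFKM and MXI1, which were also called, have no core in the first window listed. RefSeq start windows of 300 bases on GRCh38.p14 were found for 34 of the 40 members. ACGTG or GCGTG on either strand, with overlapping matches counted, occurred in the windows of 24 of the 34 members (70.6%), against 13213 of 27305 symbols (48.4%). ACGTG alone occurred in 15 of the 34 (44.1%) and in 21.6% of all symbols. These shares read only the first window listed for each symbol. The members are all coding genes, and some were listed because they are known hypoxia targets. The background took every symbol with a window and was not matched for gene type or base content. The shares are therefore no test of the members. The stretches below were picked for holding a core before any listed start. Those of PFKFB3, PFKP and PDK1 come from a later listed start, and the first windows of PFKP and PDK1 hold no core. Each line gives 30 bases, 5′ to 3′ on the gene's strand, with the core in capitals. CACGT and CACGC are the core read on the other strand, and CACGTG holds it on both strands.
ANKRD37: ggctcCACGTGccagtgtttgtgtACGTGc
BNIP3: ccgcgCACGCgccgCACGTGccaCACGCac
ENO2: ctcgtACGTGcgcctccgccggcagctcct
KDM3A: gctgtGCGTGtcttgtgagagctcttgaac
PFKFB3: ctcccCACGTGgaagggggctgggacccaa
PFKP: cgcctACGTGatgcccggcccgtcgtctcc
PDK1: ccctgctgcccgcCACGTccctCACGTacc
LDHA: cagcgCACGTGgagcagtctgccggtcggt
The ANKRD37 stretch is chr4:185396674-185396703 on the plus strand, and the BNIP3 stretch is chr10:131982042-131982071 on the minus strand. On the plus strand, ENO2 is at chr12:6914457-6914486, KDM3A at chr2:86441340-86441369 and PFKFB3 at chr10:6202819-6202848. PFKP is at chr10:3069045-3069074, PDK1 at chr2:172556060-172556089 and LDHA at chr11:18394373-18394402, also on the plus strand. The BNIP3 stretch holds 4 matches and the ANKRD37 stretch 3. These matches describe letters, and binding was not measured.

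Total counts ranged from 831062 (KO cl4_R1, day 2.5) to 3574843, with a median of 1570954. HAS2 counts did not differ between KO and WT at any day. KO minus WT was −0.26 ± 0.28, −0.23 ± 0.27, −0.01 ± 0.27 and 0.18 ± 0.38 on the log2 scale (SE) at days 1.5, 2.5, 4.5 and 7.5. None passed (edgeR, adjusted p = 0.77 at day 2.5). The edited allele is not given in the sources used here, so the knockout labels could not be checked from these counts. Summed counts scaled to library size (CPM, with TMM-scaled totals) of 8 cardiomyocyte markers had medians of 89.9, 2380, 38390 and 65990 in WT from day 1.5 to day 7.5, and none of the 8 was at 0 in any group from day 4.5 on. Of 4 blood markers, the summed level was at most 2.66 CPM in any library. In bulk RNA, fewer cells of a type and less RNA per cell cannot be told apart.

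Of the 40 members, 38 had enough counts to be tested in the genotype arm and 37 in the enzyme arm. CA9, which encodes a carbonic anhydrase of the cell surface and is a widely used hypoxia marker, had 3 counts over all 65 libraries. ALDOA (ENSG00000149925), the aldolase of muscle and many other tissues, had 14 counts in all. A second coding gene, AC093512.2, overlaps ALDOA on the same strand, ends 37 bases before it and held 1 count. How the overlap bears on the low count was not tested. PGAM1, a phosphoglycerate mutase, had 553 counts, and 13 pseudogenes named after it held 269, so its level is uncertain. It was tested in the genotype arm only. The 44 pseudogenes named after BNIP3 held 122 counts, 0.739% of those of BNIP3 and its copies together.

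**Figure D1:**
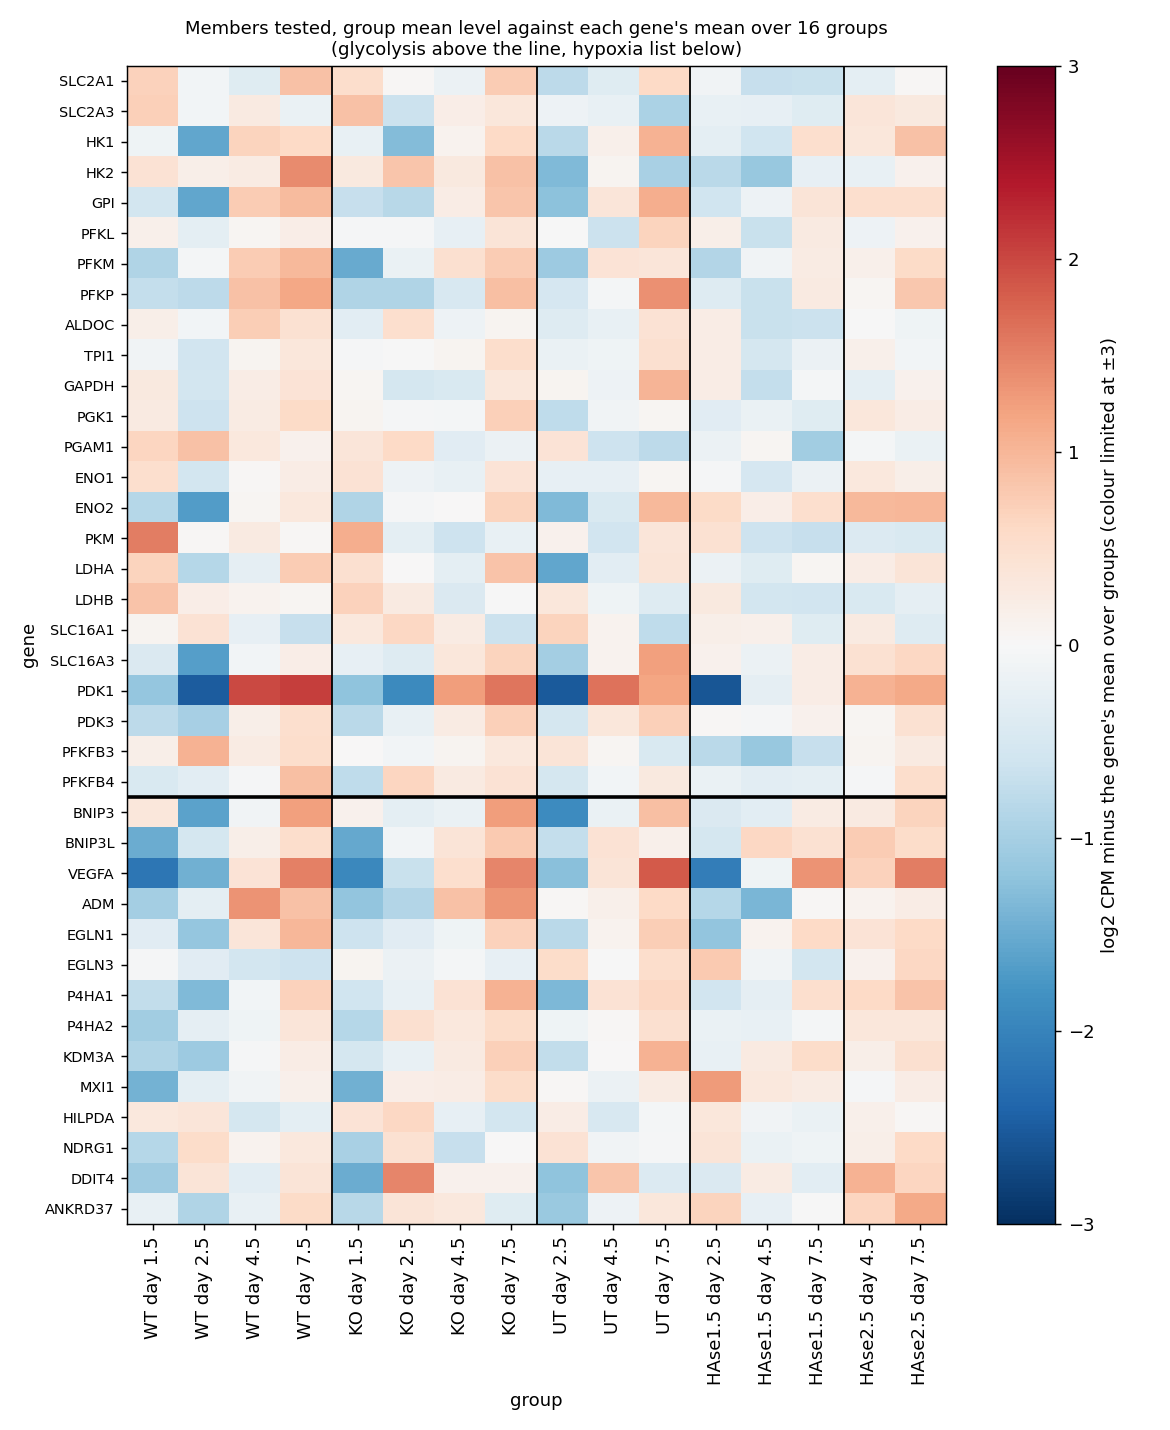
Mean level of each of the 38 members tested in the genotype arm (rows) in the 16 groups (columns), as log2 CPM minus the gene's own mean over groups, with red above and blue below and the colour limited at 3 either way. PDK1 is blue at days 1.5 and 2.5 and red at days 4.5 and 7.5 in WT, where its mean CPM went from 24.0 at day 2.5 to 600.3 at day 4.5.

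In WT cardioids most glycolytic genes that passed the test fell from day 1.5 to day 2.5 and rose from day 2.5 to day 4.5, while hypoxia targets went both ways at the first step and mostly rose at the next. At the first step 21 of 38 members passed (edgeR quasi-likelihood test, adjusted p under 0.05 over 13797 genes), 7 higher and 14 lower, where 30.1% of all genes passed, 15.0% higher and 15.1% lower. At the next step 25 of 38 passed, 22 higher and 3 lower, where 34.5% of all genes passed, 18.6% higher and 15.9% lower. From day 4.5 to day 7.5 the member that passed was VEGFA, where 2.70% of all genes did. The mean log2 CPM of 23 glycolytic genes was 7.40 ± 0.27 (SD, n = 5) at day 1.5, 6.82 ± 0.28 (n = 6) at day 2.5, 7.68 ± 0.57 (n = 6) at day 4.5 and 7.93 ± 0.26 (n = 3) at day 7.5. The mean of 14 hypoxia targets was 4.63 ± 0.19, 4.83 ± 0.08, 5.42 ± 0.23 and 5.89 ± 0.27 at the same days. The median log2 change over the tested glycolytic members was −0.72 and 0.79 at the first and next step, that over the hypoxia targets 0.37 and 0.90, and that over all genes 0.01 and 0.03.

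**Figure D2:**
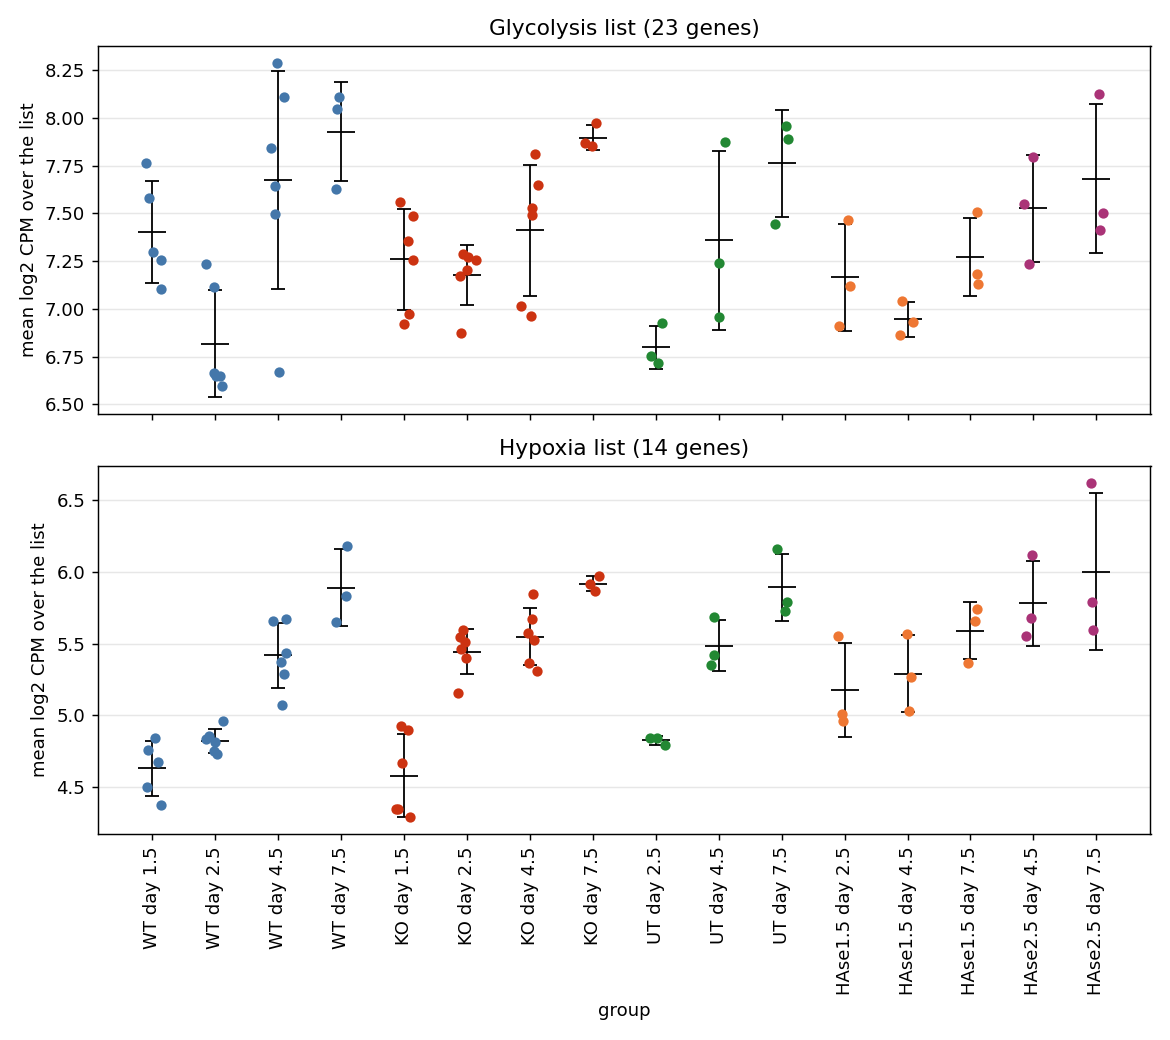
Mean log2 CPM of the 23 glycolytic genes and of the 14 hypoxia targets tested in both arms, by group, with 1 point per library and the group mean and SD. The hypoxia list at day 2.5 runs from 4.73 to 4.96 in WT and from 5.16 to 5.60 in KO.

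The glycolytic genes that fell at day 2.5 in WT ran from glucose carriers to lactate dehydrogenase, but PFKL, PFKP, ALDOC and TPI1 were not called. Among the 14 glycolytic members called, the largest changes were in PKM, which makes pyruvate (log2 fold change −1.66 ± 0.47 SE, adjusted p = 0.00547), LDHA, a lactate dehydrogenase subunit (−1.56 ± 0.41, adjusted p = 0.0031), HK1, a hexokinase that traps glucose (−1.48 ± 0.19, adjusted p = 7.49e-08), and PDK1 (−1.44 ± 0.31, adjusted p = 0.000379). HK1 had 114, 200.4 and 221 CPM as the lowest, median and highest of 5 libraries at day 1.5, and 56.5, 66.4 and 75.9 CPM among 6 at day 2.5, so the groups did not overlap. For PKM the days overlapped. Libraries WT_R1 and WT_TU_R1 had 30949 and 26553 counts at day 1.5, where the others had 4008 to 4208. At day 2.5 they had 8104 and 10523, where the others had 1543 to 2034. Both libraries were also deeper, with total counts of 3574843 and 3322686 at day 1.5, against 1915170 to 1951111 in the others. At day 2.5 their totals were 2724349 and 3241683 against 1401841 to 2034263. PKM was called under all 16 alternatives. With the replicate name as a replicate block its change was −1.48, and that of LDHA −1.60. SLC2A1 and SLC2A3, which carry glucose into cells, GPI, GAPDH, PGK1, ENO1, LDHB and SLC16A3 also fell. PFKM, the muscle phosphofructokinase, and PFKFB3, a kinase that makes the activator of phosphofructokinase, rose. Over the same step, 12 genes of the stress response went in summed level from a median of 1670 to 761 CPM, and 6 pluripotency markers from 1959 to 370.3 CPM. Their part in the members' changes was not tested.

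Of the hypoxia targets, both mitophagy receptors were called at the first WT step, in opposite directions. BNIP3 had 123, 170.1 and 253 CPM as the lowest, median and highest of 5 libraries at day 1.5 and 41.1, 41.8 and 43.9 CPM among 6 at day 2.5. The groups did not overlap, and the fall was 4.05-fold (log2 −2.02 ± 0.31, adjusted p = 2.53e-06). BNIP3L rose. NDRG1, a gene of stress and growth arrest, rose by 1.46 ± 0.26 on the log2 scale (adjusted p = 3.31e-05), DDIT4, an inhibitor of the mTORC1 kinase, by 1.26 ± 0.36 (adjusted p = 0.00611), and MXI1, an antagonist of MYC, by 1.16 ± 0.27 (adjusted p = 0.000905). VEGFA, the growth factor of blood vessels, also rose, and the oxygen sensor EGLN1 fell.

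From day 2.5 to day 4.5 the member with the largest change was PDK1, a kinase that keeps pyruvate out of mitochondrial oxidation. It had 18.2, 24.7 and 28.9 CPM as the lowest, median and highest of 6 WT libraries at day 2.5, and 269.7, 553 and 955 CPM at day 4.5. The groups did not overlap, and the rise was 26.0-fold (log2 4.70 ± 0.33, adjusted p = 1.2e-14). In UT libraries PDK1 went from 28.0, 20.7 and 21.1 CPM to 496, 429 and 371 CPM in replicates 1, 2 and 3, an 18.1-fold rise (adjusted p = 1.66e-06). In KO it rose 9.80-fold (log2 3.29 ± 0.31, adjusted p = 3.94e-11), with a range of 24.6 to 49.2 CPM at day 2.5 and 222 to 576 CPM at day 4.5. The KO step minus the WT step for PDK1 did not pass (−1.41 ± 0.41, adjusted p = 0.115).

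GPI, which turns glucose 6-phosphate into fructose 6-phosphate, rose 5.35-fold in WT over this step (log2 2.42 ± 0.22, adjusted p = 7.31e-12), and HK1 rose 4.89-fold (2.29 ± 0.19, adjusted p = 9.81e-13). PFKP, the platelet phosphofructokinase, rose by 1.85 ± 0.31 on the log2 scale (adjusted p = 9.25e-06). SLC2A3, PFKM, ALDOC, TPI1, GAPDH, PGK1, ENO1, ENO2, LDHA, SLC16A3 and PDK3 also rose, while SLC16A1, a lactate transporter, and PFKFB3 fell. Among hypoxia targets, VEGFA rose by 1.97 ± 0.21 (adjusted p = 6.82e-10), BNIP3 by 1.80 ± 0.30, ADM, which encodes a vasodilator peptide, by 1.74 ± 0.32, and EGLN1 by 1.70 ± 0.26. P4HA1, a collagen prolyl hydroxylase subunit, KDM3A and BNIP3L also rose, and HILPDA, a lipid droplet protein, fell. The WT library cl43_WT_UT stood low at day 4.5 for several of these genes. It had 33.6 CPM of BNIP3, where the other 5 had 92.5 to 220.2 CPM, and 46.1 CPM of LDHA, where the others had 224 to 952 CPM. The count of members called at this step stayed within 1.5 times of 25 when any single library was left out, but not every call held. SLC2A3 was called under 5 of 17 alternatives, with log2 0.43 and adjusted p = 0.0577 when the replicate name was a replicate block, and ALDOC, LDHA and PFKFB3 under 9 each. The summed cardiomyocyte markers went up over the same step, and their part was not tested.

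**Figure D3:**
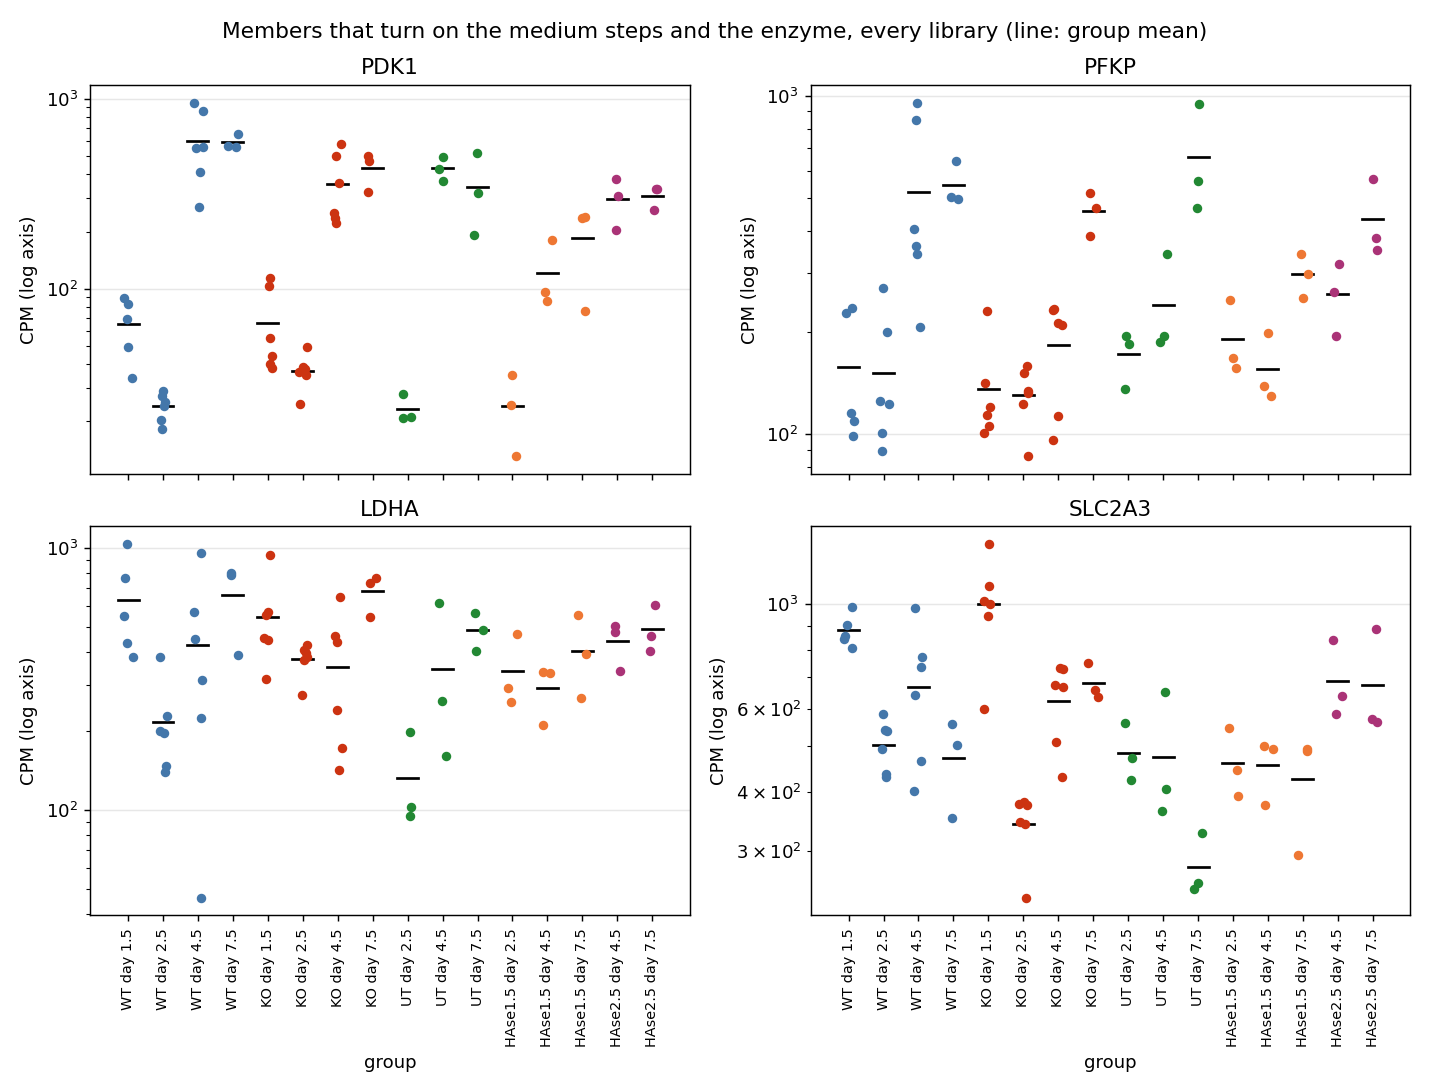
CPM on a log axis of PDK1, PFKP, LDHA and SLC2A3 in every library by group, with lines for group means. PDK1 at day 4.5 runs from 269.7 to 955 CPM in WT and from 85.9 to 179.6 CPM in HAse1.5.

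In KO, 16 members passed from day 1.5 to 2.5 (10 higher, 6 lower, where 33.3% of all genes passed). DDIT4 rose by 2.92 ± 0.36 on the log2 scale (adjusted p = 2.8e-08), with a range of 4.86 to 19.9 CPM at day 1.5 and 65.1 to 138 CPM at day 2.5 and no overlap. NDRG1 rose by 1.54 ± 0.25, MXI1 by 1.54 ± 0.26 and ANKRD37 by 1.52 ± 0.45, and VEGFA, BNIP3L and P4HA2 also rose. Of the glycolytic members, PKM changed by −1.61 ± 0.45, SLC2A3 by −1.53 ± 0.19, PFKM by 1.34 ± 0.28 and PFKFB4, a relative of PFKFB3, by 1.28 ± 0.39. ENO2 also rose, and HK1, PDK1, GAPDH and LDHB fell. BNIP3 did not pass in KO at this step (−0.45 ± 0.29, adjusted p = 0.251), but no difference between the KO and WT steps passed for any member from day 1.5 to day 2.5. The lowest adjusted p was 0.166, for ANKRD37, where 0.0797% of all genes passed.

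From day 2.5 to 4.5, 11 members passed in KO (7 higher, 4 lower, where 30.5% of all genes passed). Beside PDK1, the glycolytic members HK1, GPI, SLC2A3 and PFKM rose by 1.46 ± 0.19, 1.23 ± 0.21, 0.88 ± 0.18 and 0.77 ± 0.27 on the log2 scale, and LDHB fell. ADM and VEGFA rose by 1.86 ± 0.34 and 1.21 ± 0.20, while DDIT4, NDRG1 and HILPDA fell. With the replicate name, which links libraries of 1 line and number across days, as a replicate block, 17 members passed at this step. The block added falls of ALDOC and SLC16A1 and rises of SLC16A3, BNIP3L, P4HA1 and KDM3A. In UT, 14 of 37 passed (12 higher, 2 lower, where 23.0% of all genes passed). After PDK1 the largest UT changes were in DDIT4 (2.06 ± 0.49), BNIP3 (1.84 ± 0.40), P4HA1 (1.79 ± 0.28), GPI (1.68 ± 0.30) and VEGFA (1.64 ± 0.48). PFKM, LDHA, BNIP3L, HK1, PDK3 and KDM3A also rose, and SLC16A1 and LDHB fell. Of these calls, PDK3 held under 4 of 11 alternatives, KDM3A and LDHB under 5 each, LDHA under 6 and VEGFA under 7. Leaving out any single library ended the call of PDK3. Without UT day 4.5 replicate 1 the UT count was 9.

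The steps of 2 members from day 2.5 to 4.5 differed between KO and WT, where 0.609% of all genes passed. KO minus WT was −1.19 ± 0.29 on the log2 scale for GPI (edgeR, adjusted p = 0.0396) and −1.43 ± 0.36 for EGLN1 (adjusted p = 0.0457). GPI had 109 to 159 CPM in WT and 199.6 to 244 CPM in KO at day 2.5, with no overlap, and 409.8 to 866 and 228 to 821 CPM at day 4.5. EGLN1 had 4.16 to 11.9 CPM in WT and 12.3 to 23.7 CPM in KO at day 2.5, and 14.3 to 37.8 and 12.3 to 26.8 CPM at day 4.5. In both genes KO lay above WT at day 2.5 and overlapped it at day 4.5. The differences between steps were added after the data were seen and were not rerun under the alternatives. Both adjusted p-values lie near the threshold.

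From day 4.5 to day 7.5, VEGFA rose in WT by 1.06 ± 0.23 on the log2 scale (adjusted p = 0.00579), in KO by 0.94 ± 0.24 (adjusted p = 0.00908) and in UT by 1.58 ± 0.45 (adjusted p = 0.0422). WT libraries had 79.7, 128 and 179.8 CPM (lowest, median and highest of 6) at day 4.5 and 243, 261 and 279.8 CPM in the 3 libraries at day 7.5, with no overlap. In KO, PFKP and BNIP3 also rose (1.32 ± 0.36 and 1.30 ± 0.34) and SLC16A1 fell, so that 4 members passed where 6.22% of all genes did. In UT, PFKP, PFKL, KDM3A and HK1 rose (1.47 ± 0.29, 1.38 ± 0.36, 1.10 ± 0.24 and 0.87 ± 0.24) and SLC16A1 fell, so that 6 passed where 6.39% of all genes did. In WT the count was 0 without day 7.5 WT_TU_R2, 3 without day 4.5 WT_TU_R1 and 2 without day 4.5 WT_TU_R2, and 2 with the replicate name as a replicate block, which added a rise of SLC2A1. In KO it was 2 without day 7.5 cl4_R2 and 9 with the replicate name as a replicate block, which added rises of SLC2A1, PFKL, GAPDH, PGK1 and LDHA. In UT it was 11 without day 4.5 replicate 1, 12 without day 7.5 replicate 2, and 9 with the line as a replicate block. It was 3 without day 4.5 replicate 2 or 3 or day 7.5 replicate 1, and 2 without day 7.5 replicate 3. HK1, PFKL and VEGFA each held under 6 of 11 alternatives in UT, and PFKP under 9 of 14 in KO. The mitochondrial share of counts was 0.452 to 0.554% in UT at day 4.5 and 0.902 to 2.39% at day 7.5, highest in replicate 3, with no overlap. Its part in the UT changes was not tested.

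At day 1.5, before aggregation, no member differed between KO and WT by edgeR (0 of 38, 1 with an unadjusted p under 0.05, 0 by DESeq2, where 0% of all genes passed). The median log2 difference was −0.09 over the members and 0 over all genes.

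At day 2.5, 4 hypoxia targets were called higher in KO than in WT, together with the enolase ENO2, while PFKFB3 was lower. Of 38 members 6 passed the test, 5 higher and 1 lower, where 0.993% of all genes passed and 0.493% were higher. Of the 14 hypoxia targets, 4 were called higher (BNIP3, VEGFA, KDM3A and ANKRD37), 12 had a positive difference, and the median log2 difference was 0.82, against 0.01 over all genes. The other 2 had a negative difference, the lowest −0.68. ADM, with 13 to 45 counts in KO and 23 to 150 in WT, was among these 2. Library totals were 831062 to 1914654 counts in KO and 1401841 to 3241683 in WT. Of the 24 glycolytic members, 18 had a positive difference, and the median was 0.35. The mean level of the hypoxia list was 5.44 ± 0.16 log2 CPM over the 6 KO libraries and 4.83 ± 0.08 over the 6 WT libraries (SD), and every KO library lay above every WT library.

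BNIP3, a receptor for the removal of mitochondria, had 72.5, 113 and 130.3 CPM as the lowest, median and highest of 6 KO libraries. WT libraries had 41.1, 41.8 and 43.9 CPM, so the groups did not overlap. The difference was 2.61-fold (log2 1.39 ± 0.30, adjusted p = 0.00965). ENO2, an enolase best known from neurons, had 24.6, 36.5 and 59.8 CPM in KO and 6.37, 10.4 and 25.0 CPM in WT. The highest WT library, WT_TU_R1, lay just above the lowest KO library, cl4_R2. The difference was 3.15-fold (log2 1.65 ± 0.32, adjusted p = 0.004).

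ANKRD37, an ankyrin-repeat protein, was scarce, at 2.25, 6.92 and 8.73 CPM in KO and 0.506, 1.66 and 3.47 CPM in WT. The groups overlapped, and the log2 difference was 1.76 ± 0.45, adjusted p = 0.0429. KDM3A, a histone demethylase, had 34.4, 43.5 and 62.0 CPM in KO and 16.7, 23.7 and 37.4 CPM in WT (0.93 ± 0.23, adjusted p = 0.0339). VEGFA had 40.4, 56.0 and 79.1 CPM in KO and 23.7, 32.3 and 44.5 CPM in WT (0.82 ± 0.21, adjusted p = 0.0377). In each of these 2 genes 1 WT library reached into the KO range, WT_TU_R2 for KDM3A and cl43_WT_UT for VEGFA.

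PFKFB3 had 36.8, 49.1 and 68.8 CPM in KO and 83.7, 111 and 189 CPM in WT. The groups did not overlap, with KO below, and the log2 difference was −1.17 ± 0.28, adjusted p = 0.0281. Several members did not pass although the groups did not overlap. Among them SLC16A3, which exports lactate, had a difference of 1.32 ± 0.37, adjusted p = 0.0747, DDIT4 1.13 ± 0.33, adjusted p = 0.0913, and GPI 0.75 ± 0.21, adjusted p = 0.0711. DESeq2 called SLC16A3, DDIT4 and GPI higher (adjusted p = 0.03, 0.0468 and 0.0258). With the 2 compared groups alone, edgeR called them too (adjusted p = 0.00701, 0.00882 and 0.00911). EGLN1, TPI1 and P4HA1 also lay above WT in every KO library, and SLC2A3 below it. TPI1 and P4HA1 were called with the 2 compared groups alone (edgeR, adjusted p = 0.0346 and 0.0474). The share of all genes without overlap at this day was not counted, so the lack of overlap is no result about the members. GAPDH, often taken as a constant, differed by 0.02 ± 0.22 (95% interval −0.43 to 0.46).

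**Figure D4:**
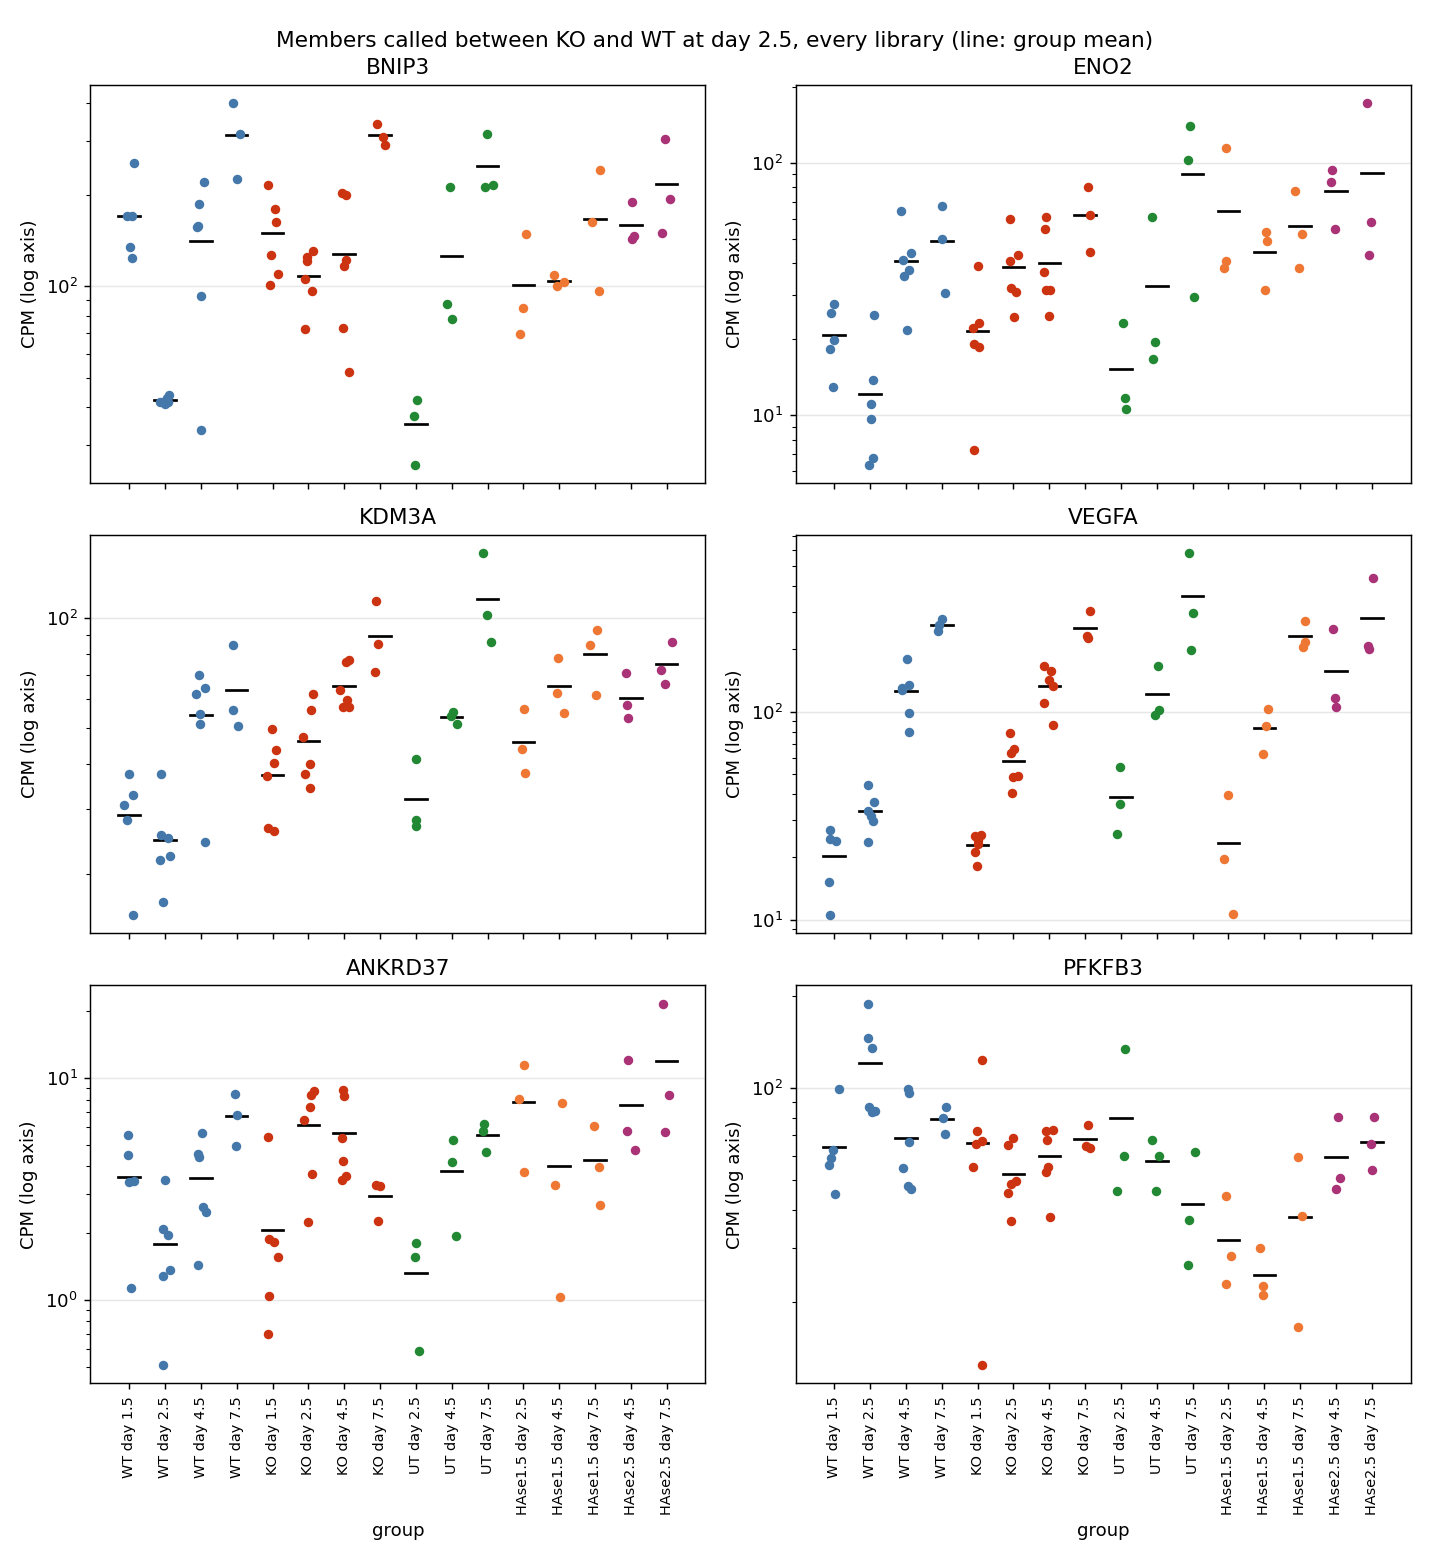
CPM on a log axis of the 6 members called between KO and WT at day 2.5, in every library by group, with lines for group means. For BNIP3 the 6 WT libraries at day 2.5 run from 41.1 to 43.9 CPM and the 6 KO libraries from 72.5 to 130.3 CPM.

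Every clone lay above the WT mean of 42.2 CPM for BNIP3 at day 2.5, with 96.6 CPM on average in cl4 (3 libraries), 106 in cl14, 125 in cl46 and 130.3 in cl51. The clone means of ENO2, KDM3A and PFKFB3 also lay outside the WT range. VEGFA had 69.5 CPM in cl4 and 48.8, 48.6 and 40.4 in cl14, cl46 and cl51. ANKRD37 had 6.18 CPM in cl4 and 8.73, 7.38 and 2.25 in cl14, cl46 and cl51. For both genes cl51 lay within the WT range. The libraries fall into 3 blocks by runs of the library numbers in the labels, where A holds those named R1 from cl4, WT_TU or WT, B those named R2, and C the remaining lines and cl4_R3. At this day the blocks held 1, 1 and 4 KO libraries and 2 WT libraries each. KO minus WT was 1.48, 0.76 and 1.42 log2 CPM for BNIP3 and 1.09, 1.47 and 2.10 for ENO2 in blocks A, B and C, with no overlap in any block. PFKFB3 was lower and ANKRD37 higher in all 3 blocks, also with no overlap. For BNIP3 and PFKFB3 the lack of overlap within blocks follows from that over all libraries. The blocks split the same libraries that gave the calls, so they are no separate evidence. KDM3A (0.16 in block B) and VEGFA (0.48 in block C) overlapped in 1 block each and kept their sign. ENO2 and BNIP3 were called under all 17 alternatives tried, PFKFB3 under 10, VEGFA and KDM3A under 8 each, and ANKRD37 under 6 of 16. The count of 6 fell to 2 without KO cl4_R1 or WT_TU_R1, and to 3 without KO cl4_R3, TNT2, WT_R1, WT_R2 or cl43_WT_UT. Cardiomyocyte markers summed to 739 to 1671 CPM in KO and 416 to 2841 CPM in WT at this day, and 6 primitive streak and mesoderm markers to 138 to 234 and 54.2 to 135 CPM. Their part in the differences was not tested.

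At day 4.5 the called members were lower in KO. They were PFKP, LDHB and NDRG1, 3 of 38, and none was higher by edgeR without a block, where 3.74% of all genes passed, 1.14% higher and 2.60% lower. The median log2 difference was −0.36 over the glycolytic members and 0.28 over the hypoxia targets, against −0.03 over all genes. PFKP had 96.0, 211 and 235 CPM in KO and 207, 381 and 955 CPM in WT, and the only WT library within the KO range was cl43_WT_UT. It was 2.88-fold lower in KO (log2 −1.52 ± 0.31, adjusted p = 0.00251). LDHB, the lactate dehydrogenase subunit typical of heart, had 230.0, 271 and 339.9 CPM in KO and 334, 410.0 and 459.8 CPM in WT (log2 −0.55 ± 0.13, adjusted p = 0.0105). Here too cl43_WT_UT was the WT library that overlapped. NDRG1 had 10.1, 14.5 and 19.5 CPM in KO and 14.7, 23.8 and 48.7 CPM in WT (log2 −0.92 ± 0.25, adjusted p = 0.029), with overlap.

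PFKP was called under all 17 alternatives, LDHB under 15 and NDRG1 under 9. The count of 3 was 6 without the WT library cl43_WT_UT. With the library number as a replicate block it was also 6, with HK1 (log2 −0.58, adjusted p = 0.0206) and ALDOC (−0.81, adjusted p = 0.0224) lower and SLC16A1 higher (0.38, adjusted p = 0.0347). DESeq2 also called SLC16A1 higher (0.49, adjusted p = 0.0378). In blocks A, B and C, KO minus WT was −1.93, −0.80 and −0.84 log2 CPM for PFKP and −1.73, −0.99 and −0.23 for NDRG1, with overlap in block C for both. LDHB was lower in all 3 blocks with no overlap. Here too the blocks split the libraries that gave the calls. Cardiomyocyte markers summed to 14560 to 40920 CPM in KO and 28690 to 59340 CPM in WT at this day, and their part in the lower levels was not tested.

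At day 7.5 no member was called by edgeR (0 of 38, 0 with an unadjusted p under 0.05, 0 by DESeq2, where 0.348% of all genes passed). The list levels were 7.90 ± 0.07 in KO and 7.93 ± 0.26 in WT for glycolysis, and 5.92 ± 0.05 and 5.89 ± 0.27 for hypoxia (log2 CPM, SD, n = 3 each). Over the 4 days, the KO effect of no member differed between days by edgeR's F-test (0 of 38, 14 with an unadjusted p under 0.05, lowest adjusted p = 0.0575, for ANKRD37), where 0.674% of all genes passed. DESeq2 was not run for this test. The test takes all 4 days together. GPI and EGLN1, whose difference between the KO and WT steps is the KO effect at day 4.5 minus that at day 2.5 and passed on its own, each had an adjusted p of 0.123 here. Calls at day 2.5 and none at day 1.5 or 7.5 therefore do not by themselves show that the effects differ. With the replicate name as a block the F-test called 5 members.

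**Figure D5:**
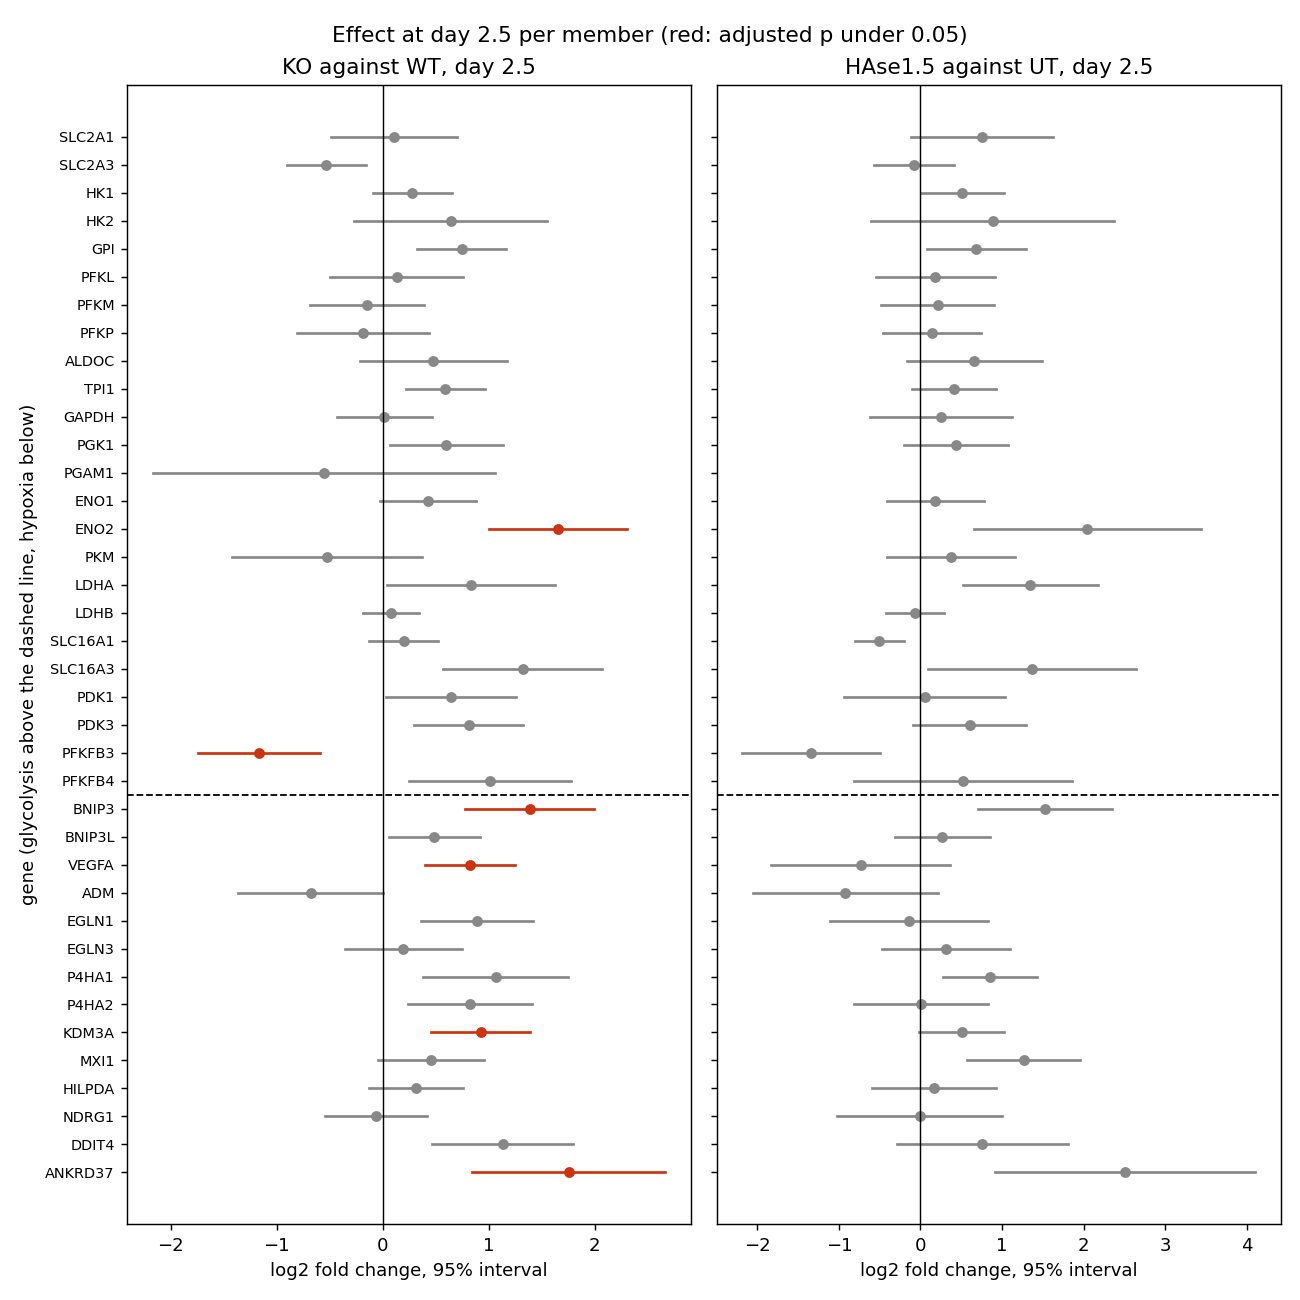
Log2 fold change with its 95% interval for each member at day 2.5, for KO against WT and for HAse1.5 against UT, with red for adjusted p under 0.05. BNIP3 is at 1.39 and 1.53, ENO2 at 1.65 and 2.04 and PFKFB3 at −1.17 and −1.34 in the respective comparisons, and no member is red for HAse1.5 against UT.

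With hyaluronidase from day 1.5, no member was called at day 2.5 by edgeR (0 of 37, 11 with an unadjusted p under 0.05, 5 by DESeq2, where 1.15% of all genes passed). The median log2 difference over the members was 0.37, against 0 over all genes, and 29 of 37 were positive. With the line as a replicate block, which pairs HAse1.5 and UT of the same line, 4 members were higher: BNIP3 (log2 1.48, adjusted p = 0.00111), MXI1 (1.27, adjusted p = 0.0016), LDHA (1.38, adjusted p = 0.00351) and ENO2 (2.03, adjusted p = 0.0204). Without HAse1.5 replicate 2 the unpaired count was 2.

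BNIP3 had 149, 85.0 and 69.6 CPM with the enzyme and 37.3, 42.4 and 25.8 CPM without it, in replicates 1, 2 and 3. Every treated library was above every untreated one, and the unpaired log2 difference was 1.53 ± 0.40, adjusted p = 0.0683. LDHA had 467, 290.2 and 257 CPM with and 198, 94.6 and 102 CPM without the enzyme (1.35 ± 0.40, adjusted p = 0.135). MXI1 had 271, 154 and 246 CPM with and 111, 79.3 and 86.9 CPM without (1.26 ± 0.34, adjusted p = 0.0756). In LDHA and MXI1 too the treated libraries lay above all untreated ones. ENO2 had 114, 40.9 and 38.3 CPM with and 23.3, 11.7 and 10.6 CPM without (2.04 ± 0.67, adjusted p = 0.201), again with no overlap. The share of all genes without overlap in this comparison was not counted. The lack of overlap in these members, and in PFKFB3 below, is therefore no result about them.

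PFKFB3 had 44.5, 22.9 and 28.2 CPM with the enzyme and 134, 46.0 and 59.9 CPM without. Treated libraries lay below all untreated ones, and the difference did not pass (−1.34 ± 0.41, adjusted p = 0.142). VEGFA had 39.7, 19.6 and 10.7 CPM with and 25.9, 36.0 and 54.0 CPM without, a log2 difference of −0.73 (95% interval −1.83 to 0.36), where KO against WT had 0.82. Whether the enzyme and KO effects differ was not tested. Cardiomyocyte markers summed to 1291 to 1449 CPM with the enzyme and 2723 to 3732 CPM without, and primitive streak and mesoderm markers to 241 to 484 and 73.0 to 132 CPM. Their part was not tested.

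At day 4.5 PDK1 was lower with the enzyme from day 1.5. It had 85.9, 179.6 and 96.3 CPM in HAse1.5 replicates 1, 2 and 3 and 496, 429 and 371 CPM in UT. The groups did not overlap, and the difference was 3.56-fold (log2 −1.83 ± 0.40, adjusted p = 0.0109). It was the 1 call among 37 members, where 3.48% of all genes passed. With the line as a replicate block PFKFB3 (−1.25, adjusted p = 0.0399) and ADM (−1.57, adjusted p = 0.0451) were also lower. The count was 0 without UT replicate 1 or HAse1.5 replicate 1 or 3, and 2 without HAse1.5 replicate 2. The glycolysis list stood at 6.95 ± 0.09 in HAse1.5 and 7.36 ± 0.47 in UT (log2 CPM, SD, n = 3 each), and cardiomyocyte markers summed to 4633 to 17210 and 22270 to 45060 CPM. The part of these markers was not tested.

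At day 7.5 PFKP was the 1 member called for HAse1.5 against UT, where 3.33% of all genes passed. It had 297, 253 and 341 CPM in HAse1.5 and 559, 467 and 947 CPM in UT, with no overlap (log2 −1.15 ± 0.29, adjusted p = 0.0254). Of 37 members 32 had a negative difference and 14 an unadjusted p under 0.05. The median log2 difference was −0.49 over the members and 0.02 over all genes. The share of all genes with such a sign or unadjusted p was not counted. With the line as a replicate block SLC2A1, the glucose transporter of red cells and many tissues, was also lower (−1.27, adjusted p = 0.0138). The count was 0 without HAse1.5 replicate 1 or 2 or UT replicate 3, and 5 without UT replicate 2. Cardiomyocyte markers summed to 28580 to 33120 CPM in HAse1.5 and 61550 to 74940 CPM in UT, and their part was not tested. The HAse1.5 effect of no member differed between days by edgeR's F-test (0 of 37, 19 with an unadjusted p under 0.05, lowest adjusted p = 0.0684), where 1.01% of all genes passed. DESeq2 was not run for this test, and the replicate block gave 5 calls.

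With the enzyme from day 2.5, no member was called at day 4.5 by edgeR (0 of 37, 1 with an unadjusted p under 0.05, 0 by DESeq2, where 0.220% of all genes passed). At day 7.5 SLC2A3, a high-affinity glucose transporter, was the 1 call, where 0.659% of all genes passed. It had 884, 570.1 and 563 CPM in HAse2.5 and 256, 328 and 248 CPM in UT, with no overlap, and was 2.41-fold higher (log2 1.27 ± 0.24, adjusted p = 0.0153). The count was 0 without replicate 1 or 3 of either group, and 2 without UT replicate 2. Between the 2 starting days of treatment, HAse1.5 against HAse2.5, no member was called at day 4.5 by edgeR (0 of 37, 10 with an unadjusted p under 0.05, 1 by DESeq2, where 0.361% of all genes passed). There 35 of 37 members were lower with the earlier start, with a median log2 difference of −0.61, against 0.007 over all genes. The share of all genes of that sign was not counted, and the members were not tested as a set. Without HAse1.5 replicate 2 the count was 1. None was called at day 7.5 (0 of 37, 5 with an unadjusted p under 0.05, 0 by DESeq2, where 0.00784% of all genes passed). HAse1.5 and HAse2.5 were each compared with the same UT libraries.

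Further genes of both pathways were read from lists beside the members: other hypoxia targets, genes of the hypoxia-inducible factors and their control, and other enzymes and carriers of glycolysis and pyruvate use. At day 2.5, 4 of 33 other hypoxia targets were higher in KO and 0 lower, with a median log2 difference of 0.56, where 0.493% of all genes were higher. They were PPFIA4 (2.83 ± 0.53, adjusted p = 0.0027), MIR210HG, the host transcript of a hypoxia-induced microRNA (1.69 ± 0.39, adjusted p = 0.0168), FAM162A (1.41 ± 0.34, adjusted p = 0.024) and AK4, a mitochondrial adenylate kinase (1.25 ± 0.29, adjusted p = 0.0177). None of 8 factor genes and none of 21 other glycolytic genes passed by edgeR at this day, and unadjusted and DESeq2 counts were not taken for these lists. For HAse1.5 against UT at day 2.5, MIR210HG was higher (2.14 ± 0.54, adjusted p = 0.0492), 1 of 30, where 1.15% of all genes passed.

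At day 4.5, 3 of 21 other glycolytic genes were lower in KO, where 2.60% of all genes were: PGAM2, the muscle phosphoglycerate mutase (−1.35 ± 0.36, adjusted p = 0.0264), MPC2, a subunit of the mitochondrial pyruvate carrier (−0.67 ± 0.20, adjusted p = 0.0442), and PDHA1, a pyruvate dehydrogenase subunit (−0.62 ± 0.18, adjusted p = 0.04). PDHA1 was also lower in HAse1.5 than in UT at this day (−0.85 ± 0.20, adjusted p = 0.0182). LOXL2, a lysyl oxidase of the matrix, was lower in KO (−1.63 ± 0.20, adjusted p = 1.23e-06) and in HAse1.5 (−1.34 ± 0.38, adjusted p = 0.046). STC1, a secreted glycoprotein, was higher in KO (2.72 ± 0.33, adjusted p = 8.03e-07), and CXCR4 was also called higher there, with WT at or under 3 counts in every library. At day 7.5, 4 of 30 other hypoxia targets were lower in HAse1.5 than in UT, where 3.33% of all genes passed: STC1 (−2.91 ± 0.71, adjusted p = 0.0254), PPFIA4 (−1.83 ± 0.51), AK4 (−1.39 ± 0.36) and TFRC, the transferrin receptor (−1.08 ± 0.30).

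Over the WT steps, 4 other hypoxia targets rose and 13 fell of 33 from day 1.5 to 2.5, and 15 rose and 5 fell from day 2.5 to 4.5. Of all genes 15.0% rose and 15.1% fell at the first step, and 18.6% rose and 15.9% fell at the next. Of the factor genes, EPAS1 (0 CPM in every library at day 1.5 and 3.07 on average at day 2.5, adjusted p = 0.000574) and HIF3A (1.32 ± 0.17, adjusted p = 3.86e-08) rose at the first step, and HIF1A (1.12 ± 0.17, adjusted p = 1.66e-06) at the next. Of 21 other glycolytic genes, 5 rose and 2 fell at the first step, and 7 rose and 1 fell at the next, shares near those of 30.1% and 34.5% of all genes called. Among those that rose at the next step were the muscle forms PGAM2 (4.61 ± 0.46, adjusted p = 1.79e-10) and ENO3 (3.58 ± 0.26, adjusted p = 1.98e-14).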

How the data were processed

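The authors deposited whole-number read counts per Ensembl gene, made with featureCounts of Subread 1.6.2 against hg38, per the submitters' processing notes. Which strand was counted, what was done with reads shared by several genes, and any filters are not given in the sources used here. Of 58735 gene IDs, 41937 matched a symbol, and 4 columns of no listed sample were not used. Groups came from the labels. The members and lists were chosen with earlier results of these data known.

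Each arm was fitted on its own with 1 mean per group (edgeR 4.0.16 quasi-likelihood test in R 4.3.3, limma 3.58.1, TMM scaling, filterByExpr with a minimum count of 10, robust, two-sided). P-values were Benjamini-Hochberg adjusted over 13797 genes in the genotype arm and 12748 in the enzyme arm, with a threshold of 0.05. Shares of all genes with an unadjusted p under 0.05, or with a difference of one sign, were not counted. CPM used TMM-scaled library sizes, and log2 CPM a prior count of 2. The floor was 3 counts per library. In each comparison the called members are named, and where a list had more than 6 calls, the 4 largest are given with values. The scripts were tested on simulated counts. Alternatives were DESeq2 1.42.0, other size factors, no filter, the compared groups alone, replicate blocks and leaving out each library. Differences between steps and values within library-number blocks were added after the data were seen. A total of 831062 to 3574843 counts per library limits the precision for members under about 10 CPM, such as ANKRD37.

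Replicate pairs differed by more than sampling noise (chi-square per degree of freedom 2.09 to 84.6 over 115 pairs). Same-numbered libraries of the enzyme arm, and same-named libraries of the genotype arm at different days, came from the same line, per the labels. They were taken as paired in the replicate-block alternatives only, and the main fits had no pairing. Deviations of these libraries from the group means correlated above 0.1 in 15 of 21 enzyme pairs of a day (lowest r −0.099) and in 38 of 51 genotype pairs (lowest r −0.16). Enzyme libraries of 1 number at different days did so in 29 of 63 pairs (lowest r −0.418), which bears on the block for the UT steps and for the effect between days.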

Additional observations from a re-analysis of the deposited data

Results flagged for a closer look

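Of 222 groups of values tested for a library far from the others, 9 were flagged, and chance flags about 1 in 20 groups. At day 1.5 in KO, library cl4_R1 of block A had 231.7 CPM of PFKP (next 141.5) and 9381 CPM of PKM (next 3962). In the same group cl46_R1 had 5.44 CPM of ANKRD37 (next 1.88), and cl51_R1 had 29.5 CPM of PDK3 (next 16.3). Block A also stood high in WT at day 1.5. There WT_R1 and WT_TU_R1 had 30949 and 26553 counts of PKM, where the other WT libraries had 4008 to 4208. For PFKP the counts were 685 and 608 against 173 to 204. Total counts were 3574843 and 3322686 against 1915170 to 1951111. The part of the block was not tested. At day 2.5 in KO, cl4_R2 was the lowest library in the glycolysis list level (6.87 log2 CPM, next 7.17), in SLC2A3 (238.2 CPM, next 341.5) and in LDHA (275.1 CPM, next 373.8). At day 4.5 in KO, cl4_R1 had 109.6 CPM of ADM, where the next library had 56.7. In WT at that day, WT_R1 and WT_TU_R1 of block A had 468 and 349 counts of ADM, where the other libraries had 70 to 119. Their total counts were 3201280 and 2779101 against 1517055 to 1731246. In WT at day 2.5, WT_TU_R1 had 382.4 CPM of LDHA, where the next had 227.3.

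The step from day 2.5 to day 4.5 differed between KO and WT for GPI (KO minus WT −1.19 on the log2 scale, edgeR adjusted p = 0.0396) and for EGLN1 (−1.43, adjusted p = 0.0457). These differences were added after the data were seen and were not rerun under the alternatives.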

How the results depend on the processing

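No alternative reversed a member's direction: of 1694 alternatives over 110 called member results, 1515 stayed on the same side of the threshold and 179 lost the call. Of 261 alternatives over 21 counts of called members, 197 stayed within 1.5 times. Leaving out 1 library at a time gave 2 to 5 calls for KO against WT at day 2.5 and 2 to 6 at day 4.5. It gave 0 to 3 for the last WT step, 2 to 5 for the last KO step, 9 to 11 for the UT step from day 2.5 to 4.5 and 2 to 12 for that to day 7.5. For HAse1.5 against UT it gave 0 to 2, 0 to 2 and 0 to 5 at days 2.5, 4.5 and 7.5, for HAse2.5 against UT at day 7.5 it gave 0 to 2, and for HAse1.5 against HAse2.5 at day 4.5 it gave 0 to 1.

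Without the filter on low counts the count was 3 for KO against WT at day 2.5 and 1 at day 4.5. It was 5, 4 and 6 for HAse1.5 against UT at days 2.5, 4.5 and 7.5, 2 for HAse2.5 against UT at day 7.5, and 6 for HAse1.5 against HAse2.5 at day 4.5. It was 10 for the last UT step and 10 for the HAse1.5 effect between days. DESeq2 gave 6 for KO against WT at day 4.5, 3 for the last WT step, 5 and 2 for HAse1.5 against UT at days 2.5 and 7.5, and 1 for HAse1.5 against HAse2.5 at day 4.5. Other size factors gave 3 for the last WT step. With the 2 compared groups alone the count was 1 for KO against WT at day 4.5 and 7 for the last KO step. It was then 1, 2 and 0 for HAse1.5 against UT at days 2.5, 4.5 and 7.5, and 0 for HAse2.5 against UT at day 7.5. The cause of these changes was not tested.

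With the replicate number, which names the line, as a replicate block in the enzyme arm, counts were 4, 3 and 2 for HAse1.5 against UT at days 2.5, 4.5 and 7.5, 5 for the HAse1.5 effect between days, and 9 for the last UT step, the same within 1.5 times. With the replicate name, of which a line can have several, as a replicate block in the genotype arm, counts were 17 and 9 for the later KO steps, 2 for the last WT step and 5 for the KO effect between days. No other count moved by over 1.5 times under these blocks, and SLC2A3 in the WT step from day 2.5 to 4.5 was the 1 member that lost its call. KO and WT share library numbers but not lines. With the library number as a replicate block, KO against WT had 9 calls at day 2.5 (GPI, PGK1 and P4HA1 added) and 6 at day 4.5. KO and WT libraries of one number and day correlated above 0.1 in 27 of 37 pairs. With a prior count of 0.5 the hypoxia list level at day 2.5 was 4.74 in WT and 4.73 in UT.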
